A study of Saccharomyces cerevisiae with 23 samples.

Results

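The phosphate regulon genes described here are 7 genes of budding yeast, chosen by systematic name: the acid phosphatases PHO5 (YBR093C), PHO11 (YAR071W) and PHO12 (YHR215W), the phosphate transporters PHO84 (YML123C) and PHO89 (YBR296C), the regulator of phosphate uptake SPL2 (YHR136C) and the polyphosphate synthesis gene VTC3 (YPL019C). They are 7 of the 6256 yeast probes on the array, and all 7 were among the 6131 probes tested. The rule that picks them uses no measured value, though earlier results of these data were known when it was set. In the RefSeq annotation (assembly R64), PHO5 and PHO89 lie on chromosome II, PHO11 on I, PHO12 and SPL2 on VIII, PHO84 on XIII and VTC3 on XVI.

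Transcripts were measured on 23 two-colour Agilent arrays in cells grown at 30 °C and exposed to 1.2 M sorbitol for 0, 30 or 60 min, a hyperosmotic stress. SUMO is a small protein modifier that is attached to the corepressor subunits Tup1 and Cyc8. The question was whether cells express their genes differently when this attachment is lost (Tup1) or strongly reduced (Cyc8). The paper reports that the loss on Cyc8 also considerably lowered the attachment to Tup1, while the loss on Tup1 left that to Cyc8 unaltered. The 4 strains were Tup1K270R/Cyc8-4KtoR (the double mutant), Cyc8-4KtoR (substitutions K735R, K736R, K738R and K748R), Tup1K270R (substitution K270R) and wild type. All were MATa haploids of the BY4741 background, which lacks the MET15, HIS3, URA3 and LEU2 genes. Every strain, wild type included, carried a tagged SUMO gene, and in each the native TUP1 and CYC8 genes were deleted and replaced by a wild-type or mutant copy at the same promoter. The tagged SUMO gene came with the marker HIS3MX6, the TUP1 copy with URA3 and the CYC8 copy with LEU2, so these markers were present in every strain. Each strain and time had 2 cultures, replicates A and B, from isolates of separate transformations. The 3 mutants were sampled at 0, 30 and 60 min, and wild type at 30 and 60 min, each against the 0 min wild-type culture of its own replicate. The remaining array set the 0 min wild-type cultures against each other (wt x wt). Replicate A samples carried Cy3 and replicate B samples Cy5, so dye and replicate cannot be told apart.

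When phosphate is scarce, the kinase inhibitor Pho81 shuts off the Pho80-Pho85 kinase, and the transcription factor Pho4 then enters the nucleus and, with Pho2, switches on the phosphate (PHO) genes. Their products release phosphate from organic compounds outside the cell, take it up at high affinity, and store it in the vacuole as polyphosphate. Tup1 and Cyc8 form a corepressor that does not bind DNA itself and is brought to promoters by DNA-binding proteins, and repression by the complex is eased at many stress genes when osmolarity rises.

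Values below are log2 ratios of the sample over 0 min wild type, averaged over the 2 spots of a probe and centred on each array, so they are relative to the bulk of transcripts. In a culture, fewer cells expressing a gene and less RNA per cell cannot be told apart. A gene was said to rise or fall when limma's test passed an adjusted p of 0.05 (Benjamini-Hochberg over all 6131 probes). A mean at least 0.65 log2 units from 0, the cutoff of the study's methods, is called past the cutoff. Replicates were separate cultures, but all arrays of a replicate share 1 culture of 0 min wild type, and tests against 0 min wild type leave out the spread of that culture.

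All 7 genes were well above background in both channels on every spot of the 23 arrays. On the wt x wt array their log2 ratios lay between −0.17 for PHO5 and 0.29 for PHO84, while 3 SD over all probes was 0.706. The stress labels were borne out by 7 osmostress genes, all past the cutoff in wild type at both times, with a median log2 change of 5.27 at 30 min and 4.92 at 60 min. Of the mating-type markers, all 5 MATa genes were well above background on every spot, as were the MATalpha genes STE3 and SAG1, whereas MFALPHA1 and MFALPHA2 fell short on 11 and 8 of 46 spots. For replicate B of the double mutant, one label field exchanges the 30 and 60 min arrays and another exchanges the dyes at 0 min. Array titles were followed. As titled, the double-mutant replicates at 0 min correlated at 0.429 (Pearson r over all tested probes), those of Cyc8-4KtoR at 0.107 and those of Tup1K270R at −0.0548. Turning the dyes would reverse the sign of every ratio on the replicate B array. As titled, the replicate B double-mutant arrays fell in with the other arrays of their time for PHO2 and SPL2, but PHO11 and PHO12 did not separate them. PHO2, the partner of the PHO activator Pho4, was at 0.93 on the 30 min array, where all 8 arrays of that time lay between 0.88 and 1.08. On the 60 min array it was at −0.42, the lowest of 8 that ran up to −0.08. SPL2 separated the times in the same way. PHO11 was at −0.955 on the 30 min array and −0.961 on the 60 min array, and PHO12 at −1.43 and −1.105. For both genes these were the lowest of the 8 values at 30 min and the highest of the 8 at 60 min. Calls that are lost under the other readings are given below.

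The 7 genes did not move together in sorbitol. In wild type at 30 min, SPL2, PHO89 and PHO5 rose and VTC3, PHO12 and PHO11 fell. At 60 min PHO89 was still higher than at 0 min, SPL2 had dropped below its starting level, and PHO12, PHO11 and VTC3 were lower. Percentages of all tested probes that passed the same rule give the background against which these counts stand. At 30 min 3 of 7 genes rose, against 34.7% of all probes, 3 fell, against 32.7%, and 4 were past the cutoff, against 32.6%. At 60 min 1 rose (24.1% of all probes), 4 fell (22.2%) and 4 were past the cutoff (14.3%). Between 30 and 60 min none rose (23.4%), 4 fell (25.7%) and 5 were past the cutoff (28%). With the replicate B double-mutant arrays of 30 and 60 min exchanged, the wild-type values stay as they are, but the shared estimate of the spread alters and none of the 4 falls passed (adjusted p = 0.0565 to 0.0698). The median log2 change of the 7 genes was −0.48 at 30 min and −0.39 at 60 min, while that of all probes was −0.002 and 0.

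**Figure D1:**
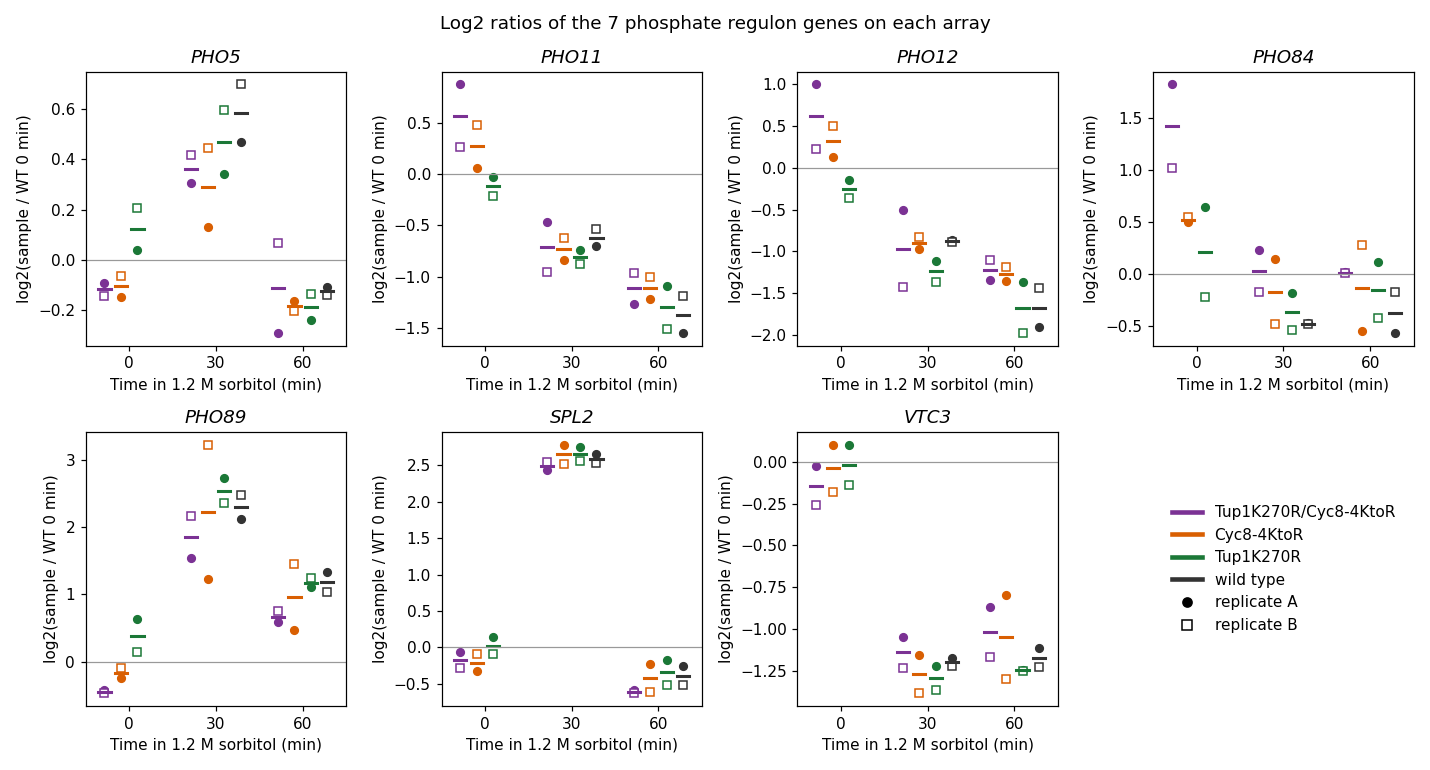
Log2 ratio of each array's sample over 0 min wild type (vertical axis, log2 units) by time in 1.2 M sorbitol (horizontal axis, min) for the 7 genes. Filled circles are replicate A, open squares replicate B and bars their mean. The 8 SPL2 values at 30 min lie between 2.43 and 2.78 and those at 60 min between −0.63 and −0.17, while PHO84 stands highest in the double mutant at 0 min, at 1.83 and 1.02.

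PHO5 encodes the main repressible acid phosphatase, secreted to the cell surface. Wild-type cells had log2 ratios of 0.47 and 0.70 (replicates A and B) at 30 min and −0.11 and −0.14 at 60 min. The values at 30 min were the higher in both replicates. The mean at 30 min was 0.58 ± 0.16 (SD, n = 2), 1.5-fold over 0 min (limma adjusted p = 9.34e-05). From there PHO5 fell by 0.71 log2 units by 60 min (adjusted p = 6.77e-04), where its ratio of −0.13 to the start did not pass the test (adjusted p = 0.308).

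PHO5 was also raised in the mutants at 30 min. There the values were 0.31 and 0.42 in the double mutant, 0.13 and 0.45 in Cyc8-4KtoR and 0.34 and 0.60 in Tup1K270R. All 6 were positive, and those of the double mutant and Cyc8-4KtoR lay below both wild-type values, 0.47 and 0.70. The Cyc8-4KtoR difference from wild type was −0.30 (unadjusted p = 0.0482, adjusted p = 0.999). Against its own 0 min level PHO5 rose by 0.48 in the double mutant, 0.39 in Cyc8-4KtoR and 0.35 in Tup1K270R (limma adjusted p = 0.00761, 0.0233 and 0.0432).

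PHO11 and PHO12 encode minor acid phosphatases of nearly identical sequence, so their probes may share signal and their values are not independent. PHO11 in wild type stood at −0.70 and −0.54 at 30 min and at −1.55 and −1.19 at 60 min. PHO12 stood at −0.87 and −0.89 at 30 min and at −1.91 and −1.45 at 60 min. In both genes the 60 min values lay below the 30 min values in each replicate. PHO11 was 2.59-fold lower at 60 min than at 0 min (mean −1.37 ± 0.25, adjusted p = 1.19e-05) and PHO12 3.20-fold lower (mean −1.68 ± 0.33, adjusted p = 2.24e-05). At 30 min the falls were 0.62 for PHO11 (adjusted p = 0.00354) and 0.88 for PHO12 (adjusted p = 0.00205).

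The fall of this pair was present in every strain. Over the 8 arrays at 60 min PHO11 ranged from −1.55 to −0.96 with a median of −1.20, and PHO12 from −1.98 to −1.1 with a median of −1.36. Neither range reached the lowest 0 min value, −0.21 for PHO11 and −0.36 for PHO12, both in Tup1K270R. Over the 22 arrays PHO12 had the lower ratio on 19, by a median of 0.16 log2 units.

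Before stress the pair spread more widely among strains. PHO11 was at 0.87 and 0.26 in the double mutant, 0.06 and 0.47 in Cyc8-4KtoR and −0.03 and −0.21 in Tup1K270R. PHO12 was at 1.00 and 0.23 in the double mutant, 0.13 and 0.51 in Cyc8-4KtoR and −0.14 and −0.36 in Tup1K270R. Both genes were positive on all 4 arrays of strains with Cyc8-4KtoR and negative on both Tup1K270R arrays, relative to wild type. The double-mutant means, 0.57 ± 0.43 for PHO11 and 0.62 ± 0.55 for PHO12, did not pass the test (adjusted p = 0.103 and 0.187). With replicate as a block in the limma fit, PHO11 did (adjusted p = 0.0479) and PHO12 did not (adjusted p = 0.0847).

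PHO84 encodes the high-affinity proton-coupled phosphate transporter, the main route of uptake when phosphate is scarce. It was the only one of the 7 genes whose difference from wild type passed the test without a block in any mutant. In unstressed cells its log2 ratio was 1.83 and 1.02 in the double mutant, 0.50 and 0.54 in Cyc8-4KtoR and 0.65 and −0.23 in Tup1K270R. Both double-mutant values lay above the other 4. The double-mutant mean of 1.42 ± 0.57 (SD, n = 2) was 2.68-fold over wild type (95% interval 0.90 to 1.95, limma adjusted p = 0.00965) and ranked 23 by size among 6131 probes. Cyc8-4KtoR differed from wild type by 0.52 (adjusted p = 0.783).

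**Figure D2:**
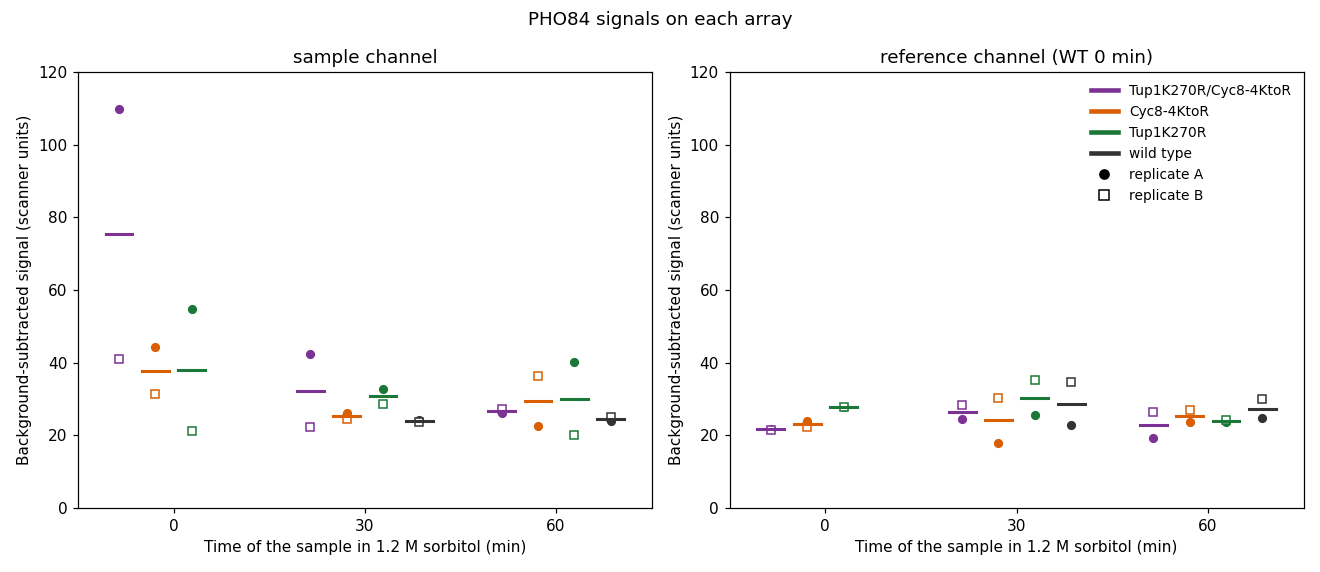
Background-subtracted signal of the PHO84 probe (vertical axis, scanner units) in the sample channel (left) and the reference channel, 0 min wild type (right), by time of the sample in 1.2 M sorbitol. Bars are means of replicates A and B. The double mutant at 0 min gave 109.9 and 40.9, and the reference channel lay between 17.8 and 35.2 on all 22 arrays.

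The PHO84 signals were dim. At 0 min the double-mutant channel gave 109.9 and 40.9 scanner units in replicates A and B, against 21.7 and 21.5 units for wild type on the same arrays. The plot of PHO84 signals shows that replicate A alone stood far from the other arrays. The difference depended on the processing: with a normexp correction, which adds an offset of 50 units, it was 0.18 (limma adjusted p = 0.999). On replicate A normexp took PHO84 from 1.83 to 0.01, and the brighter PHO11 from 0.87 to 0.43 and PHO12 from 1.00 to 0.47. On replicate B it took PHO84 from 1.02 to 0.34, while PHO11 stayed at 0.26 and PHO12 went from 0.23 to 0.22. The cause was not tested. The PHO84 difference was 1.53 in the deposited ratios (adjusted p = 0.0889). With the spread of the 0 min wild type included adjusted p was 0.0817, and with the replicate B dyes read the other way the mean was 0.40. In the same samples the osmostress genes GRE2 and GPP2 were also higher, by 1.06 and 1.18 log2 units (limma adjusted p = 0.0107 and 0.0198), and HSP12 stood at 2.02 and 0.88. The 7 osmostress genes did not all go that way. Their median was 0.33 and the lowest −0.67, with 3 past the cutoff higher (1.45% of all probes) and 1 lower (0.718%). Only 2 of the 7 rose by the test (1.19% of all probes). The part of these genes in the PHO84 value was not tested.

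In sorbitol PHO84 was near its unstressed wild-type level. At 30 min the values were 0.22 and −0.18 in the double mutant, 0.14 and −0.49 in Cyc8-4KtoR, −0.19 and −0.55 in Tup1K270R and −0.48 and −0.49 in wild type. At 60 min they were 0.02 and 0.01 in the double mutant, −0.55 and 0.28 in Cyc8-4KtoR, 0.11 and −0.43 in Tup1K270R and −0.57 and −0.18 in wild type. Both double-mutant values lay above both wild-type values at each time and above both Tup1K270R values at 30 min, and the other strains overlapped. The wild-type means, −0.48 at 30 min and −0.38 at 60 min, did not pass the test (adjusted p = 0.0973 and 0.231). Only in the double mutant did PHO84 pass within a strain, falling by 1.40 at 30 min (adjusted p = 0.00307) and by 1.41 at 60 min (adjusted p = 0.00924) from its high start. With normexp these were −0.12 and −0.09 and did not pass. The difference of these falls from those of wild type was −0.92 at 30 min and −1.04 at 60 min, and neither passed the limma interaction test (adjusted p at least 0.633).

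PHO89 encodes the sodium-coupled phosphate transporter, which works at alkaline pH. It was one of the 2 genes of this group that rose most at 30 min. Wild-type cells had log2 ratios of 2.12 and 2.47 at 30 min and 1.33 and 1.04 at 60 min. Both 60 min values lay below both 30 min values and above 0. At 30 min PHO89 was 4.90-fold over 0 min (mean 2.29 ± 0.25, adjusted p = 2.68e-05) and ranked 133 by size among all probes. At 60 min it was 2.27-fold over 0 min (mean 1.19 ± 0.21, adjusted p = 0.00945). That second call was lost when the spread of the 0 min wild type was included (adjusted p = 0.0508), with normexp (0.0512) and in the deposited ratios (0.189). The decline of 1.11 between 30 and 60 min did not pass (adjusted p = 0.0641), but did with the replicate block (0.0421), with slide as a random block (0.0157) and with the spread of the 0 min wild type included (0.0481).

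PHO89 also had the widest spread between replicates at 30 min. At 30 min it stood at 1.54 and 2.16 in the double mutant, 1.23 and 3.23 in Cyc8-4KtoR and 2.72 and 2.35 in Tup1K270R. The Cyc8-4KtoR arrays bracketed all other values, one below and one above wild type by 0.89 and 0.76, so the mean difference of −0.07 ± 1.16 (SD, n = 2) had an interval of −1.07 to 0.94. Against its own 0 min level PHO89 rose 4.91-fold in the double mutant, 5.30-fold in Cyc8-4KtoR and 4.44-fold in Tup1K270R (adjusted p = 7.48e-04, 5.52e-04 and 0.00139). In Cyc8-4KtoR replicate A gave 1.48 log2 units and replicate B 3.33. At 60 min it remained above 0 on all 8 arrays, from 0.47 in Cyc8-4KtoR to 1.45 in the other Cyc8-4KtoR replicate, with a median of 1.07. None of the mutants' own changes from 0 to 60 min passed the test (adjusted p = 0.0978 to 0.237). At 0 min the double mutant was at −0.42 and −0.47, Cyc8-4KtoR at −0.25 and −0.10 and Tup1K270R at 0.63 and 0.15, and none of these means differed from wild type (adjusted p at least 0.618).

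SPL2 encodes a small protein that lowers uptake through the low-affinity phosphate transporters when phosphate is scarce. Of the 7 genes it had the largest mean change in wild type. At 30 min its log2 ratio was 2.43 and 2.55 in the double mutant, 2.78 and 2.52 in Cyc8-4KtoR, 2.75 and 2.55 in Tup1K270R and 2.66 and 2.53 in wild type. At 60 min it was −0.58 and −0.63 in the double mutant, −0.23 and −0.61 in Cyc8-4KtoR, −0.17 and −0.51 in Tup1K270R and −0.26 and −0.52 in wild type. The strains overlapped at 30 min, and the 2 times did not. Wild-type SPL2 was 6.03-fold over 0 min at 30 min (mean 2.59 ± 0.09, adjusted p = 2.61e-10) and ranked 99 by size.

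SPL2 then fell by 2.98 log2 units, 7.88-fold, between 30 and 60 min in wild type (adjusted p = 3.87e-08), which ranked 11 of 6131 probes by size. Replicate A, whose 30 and 60 min arrays shared a slide, gave −2.91 and replicate B −3.04. The 60 min level was slightly below the start (mean −0.39 ± 0.18, adjusted p = 0.0135), a call lost with normexp (adjusted p = 0.316) and in the deposited ratios (0.361). Each mutant rose from its own 0 min level at 30 min, 6.35-fold in the double mutant, 7.27-fold in Cyc8-4KtoR and 6.19-fold in Tup1K270R (adjusted p at most 2.66e-08). SPL2 was dim, with reference signals of 32.2 to 67.7 units. With normexp its wild-type log2 change at 30 min was 1.70 (limma adjusted p = 4.85e-07). Those within the double mutant, Cyc8-4KtoR and Tup1K270R were then 1.67, 1.12 and 1.78, all past the test. The Cyc8-4KtoR ratio at 30 min was 0.52 in replicate A and 1.62 in replicate B with normexp, so 1 array lowered that mean, for a cause that was not tested.

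VTC3 encodes a subunit of the vacuolar complex that makes polyphosphate. Its transcript was lower at 30 min and stayed there. At 30 min it stood at −1.05 and −1.23 in the double mutant, −1.15 and −1.39 in Cyc8-4KtoR, −1.23 and −1.37 in Tup1K270R and −1.18 and −1.22 in wild type. At 60 min it stood at −0.87 and −1.17 in the double mutant, −0.80 and −1.30 in Cyc8-4KtoR, −1.25 and −1.25 in Tup1K270R and −1.12 and −1.23 in wild type. All 16 stressed values lay below all 6 unstressed ones, which ran from −0.26 to 0.10. Wild-type VTC3 was 2.30-fold lower at 30 min than at 0 min (mean −1.20 ± 0.03, adjusted p = 5.59e-07) and 2.25-fold lower at 60 min (mean −1.17 ± 0.08, adjusted p = 2.49e-06). The 2 times differed by 0.03 (95% interval −0.33 to 0.38). In the deposited ratios the falls were of like size, but adjusted p was 0.0571 at 30 min and 0.0538 at 60 min.

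Within the mutants the counts were close to those in wild type. From 0 to 30 min 3 genes rose and 4 fell in the double mutant (30.8% and 28% of all probes), 3 rose and 3 fell in Cyc8-4KtoR (29.9% and 27.4%), and 3 rose and 3 fell in Tup1K270R (28.9% and 27.2%). With the replicate B arrays of 30 and 60 min exchanged, 4 genes passed in the double mutant at 30 min, and SPL2 (1.07, adjusted p = 0.433), PHO89 (1.59, 0.0916) and PHO5 (0.30, 0.329) did not. Past the cutoff were 6 genes in the double mutant (36.1%), 6 in Cyc8-4KtoR (35.1%) and 5 in Tup1K270R (33.8%). From 0 to 60 min none rose and 4 fell in the double mutant (12.5% and 10.6%), none rose and 3 fell in Cyc8-4KtoR (12.8% and 10.3%), and none rose and 3 fell in Tup1K270R (14.4% and 12.8%). Before adjustment limma's test put PHO89 higher at 60 min in the double mutant and in Cyc8-4KtoR (adjusted p = 0.103 and 0.0978). Past the cutoff at 60 min were 5 genes in the double mutant (12.1%), 5 in Cyc8-4KtoR (12.2%) and 4 in Tup1K270R (14%). With replicate as a block, 5 genes passed the test in Tup1K270R at 60 min, PHO5 (adjusted p = 0.0236) and SPL2 (0.0299) in addition to PHO11, PHO12 and VTC3. SPL2 then also passed in the double mutant (adjusted p = 0.0158, against 0.0708 without the block).

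**Figure D3:**
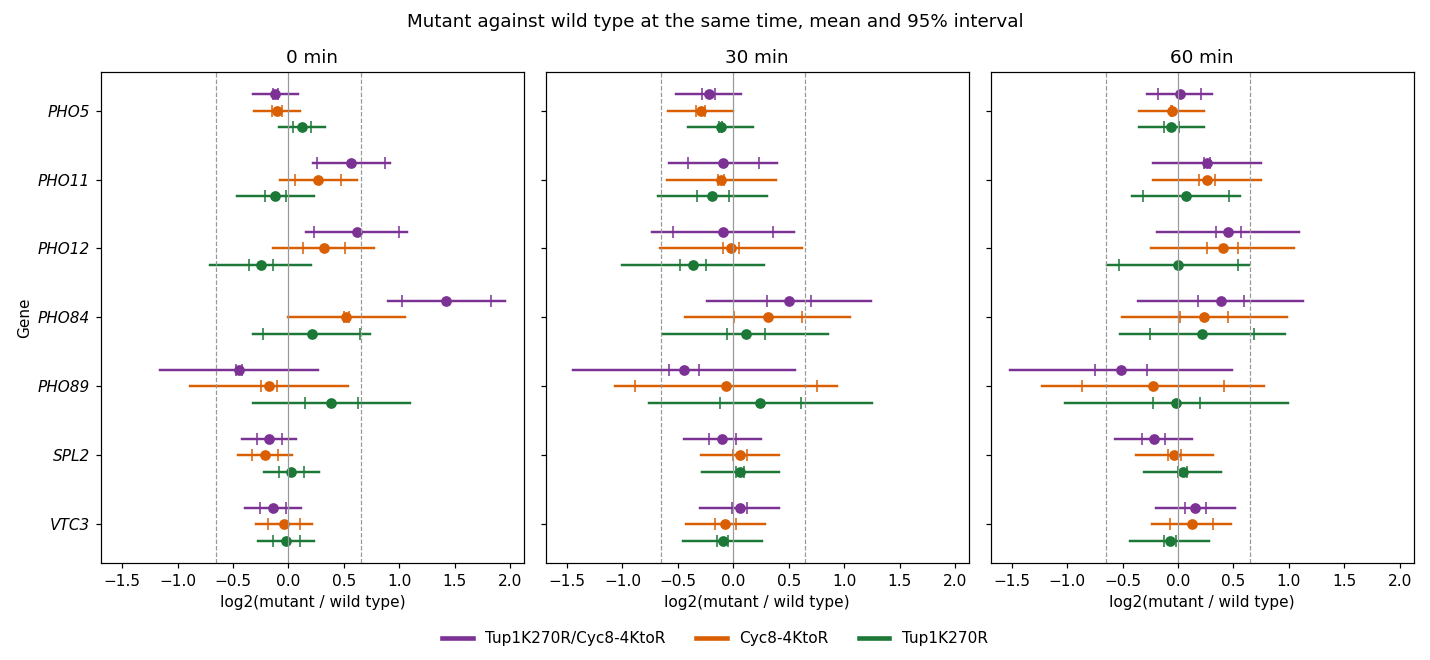
Difference of each mutant from wild type at the same time (horizontal axis, log2 units) for the 7 genes (vertical axis), at 0, 30 and 60 min. Points are means of 2 replicates, ticks the replicates and lines limma's 95% intervals, with dashed lines at the cutoff of 0.65. PHO84 in the double mutant at 0 min, 1.42, is the only mean past the cutoff.

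Set against wild type at the same time, 1 of the 63 differences (7 genes, 3 mutants and 3 times) passed the limma test and 4 had an unadjusted p under 0.05. The passing one was PHO84 in the double mutant at 0 min. At 0 min 1 gene passed in the double mutant (1.52% of all probes), none in Cyc8-4KtoR (0.294%) and none in Tup1K270R (0%). Past the cutoff at 0 min were 1 gene in the double mutant (2.17%), none in Cyc8-4KtoR (1.6%) and none in Tup1K270R (0.734%). At 30 min no gene passed the test in the double mutant (0.0489%), Cyc8-4KtoR (0.0163%) or Tup1K270R (0%), and none was past the cutoff in the double mutant (2.37%), Cyc8-4KtoR (1.89%) or Tup1K270R (1.22%). At 60 min no gene passed in the double mutant (0.0489%), Cyc8-4KtoR (0.0489%) or Tup1K270R (0%), and none was past the cutoff in the double mutant (1.99%), Cyc8-4KtoR (1.47%) or Tup1K270R (0.718%). In Tup1K270R no probe passed the adjusted test without a block at any time, while 243, 196 and 66 probes had an unadjusted p under 0.05 at 0, 30 and 60 min, none of them one of the 7 genes. With replicate as a block 13 probes passed at 0 min, none of them one of the 7 genes, and 0 at 30 and 60 min. The percentages above are from the fit without that block. In the double mutant at 0 min 539 probes passed with it, PHO11 among them, and 93 without it. For Cyc8-4KtoR at 0 min these counts were 76 and 18. At 30 and 60 min the block gave 12 and 46 probes in the double mutant and 2 and 3 in Cyc8-4KtoR.

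The intervals of these differences show what the arrays could resolve. For PHO5, SPL2 and VTC3 all 9 intervals lay within 0.65 log2 units of 0, so changes past the cutoff lay outside them. For PHO11 5 of 9 did, for PHO12 1, and for PHO84 and PHO89 none. Each interval of PHO84 and PHO89 thus held values past the cutoff. Whether a mutant's response to sorbitol differed from that of wild type was tested in 42 interactions, of which none passed (lowest adjusted p = 0.633) and 3 had an unadjusted p under 0.05, PHO84 in the double mutant at both times and PHO11 in the double mutant at 30 min (−0.66, unadjusted p = 0.034).

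The other genes of the pathway were taken from a list of 24. Of 12 further Pho4 targets, 3 rose and 3 fell in wild type at 30 min (34.7% and 32.7% of all probes), and 2 rose and 4 fell at 60 min (24.1% and 22.2%). PHM8, a phosphatase of nucleotides and lysophosphatidate, rose by 3.34 log2 units at 30 min (adjusted p = 9.15e-08) and 1.72 at 60 min. PHO8, the vacuolar alkaline phosphatase, rose by 0.91 at 30 min (adjusted p = 1.88e-07) and fell by 0.79 between 30 and 60 min. PHM6, of unknown function, fell by 0.77 and 0.79 at the 2 times. The other genes of the polyphosphate complex of VTC3 differed among themselves. VTC4 fell by 0.54 at 30 min (adjusted p = 6.73e-06) and by 0.34 at 60 min (adjusted p = 0.00106). VTC5 stood at 0.05 at 30 min and fell by 0.83 at 60 min (adjusted p = 1.59e-05). VTC1 stood at 0.09 and 0.11 at the 2 times and VTC2 at −0.01 and −0.14, none of which passed the test. VTC4 was chosen for mention after its values were seen, as were VTC1 and VTC2. GIT1, a transporter of glycerophosphoinositol, fell by 0.76 at 60 min (adjusted p = 0.0148). The median of these 12 was −0.02 at 30 min.

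**Figure D4:**
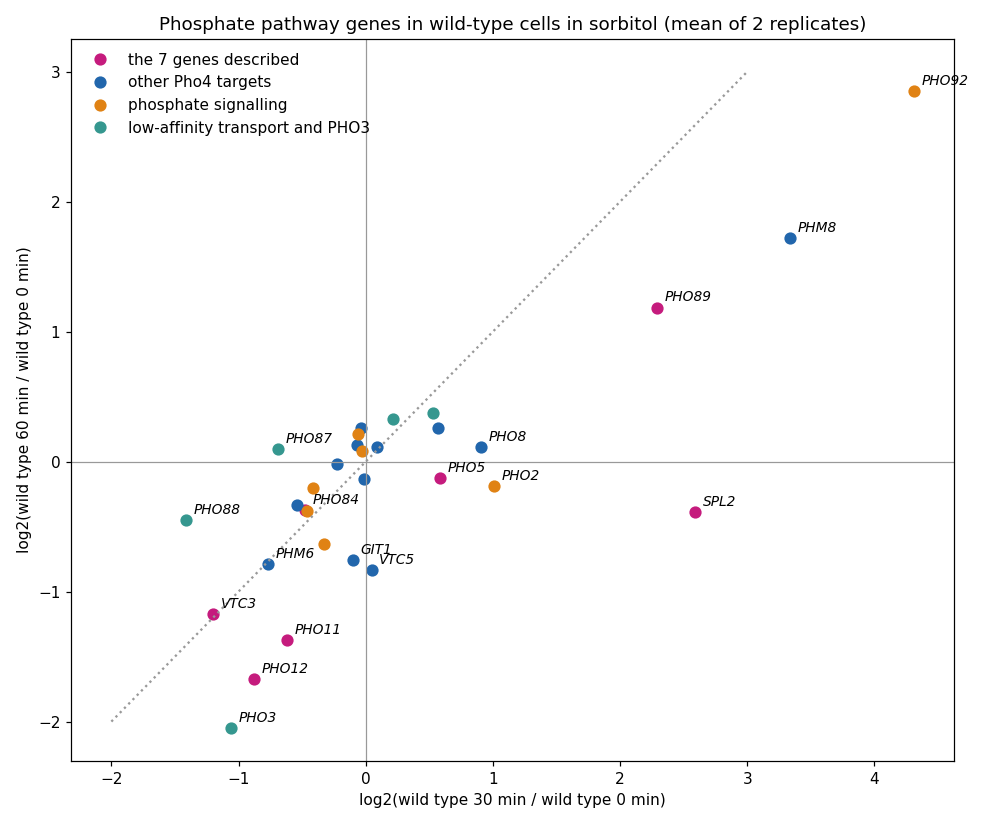
Log2 change in wild type at 30 min (horizontal axis) and at 60 min (vertical axis), each against 0 min, for the 7 genes and the 24 others of the pathway, mean of 2 replicates, with the line of equal change dotted. SPL2 lies far below the line, at 2.59 and −0.39, while VTC3 lies on it, at −1.20 and −1.17.

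Of 7 signalling genes 2 rose and 3 fell at 30 min, against the same 34.7% and 32.7% of all probes. PHO2, the partner of Pho4, rose by 1.01 (adjusted p = 1.03e-08) and fell by 1.20 between 30 and 60 min, a rise and decline that SPL2 and PHO5 had too. PHO92, an RNA-binding protein, stood 4.31 above 0 min, though its reference channel was well above background on only 8 of 23 arrays. PHO4 fell by 0.82 in the double mutant between 0 and 30 min, where the polyphosphatase gene PPN1 rose by 0.85, and PHO80 fell by 0.70 in Tup1K270R at 60 min. Of 5 genes of low-affinity transport and PHO3, 1 rose and 3 fell at 30 min, against those same shares. PHO88, an endoplasmic reticulum membrane protein needed for phosphate uptake, fell by 1.41 (adjusted p = 5.24e-08) and PHO87, a low-affinity transporter that Spl2 acts on, by 0.69 (adjusted p = 2.02e-07). PHO87 and PHO88 then rose by 0.79 and 0.96 between 30 and 60 min, while SPL2 fell. PHO90 and PHO91, also of this list, had no such fall at 30 min. Over the 8 arrays of a time PHO90 ran from −0.18 to 0.35 at 30 min and from 0.18 to 0.66 at 60 min. PHO91 ran from 0.23 to 0.71 and from −0.01 to 0.41. Both were chosen for mention after their values were seen.

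PHO3 encodes a constitutive acid phosphatase next to PHO5 on chromosome II. It fell by 1.06 at 30 min and 2.05 at 60 min in wild type (adjusted p = 0.0023 and 2.23e-05). Its course was close to that of PHO11 and PHO12 and not to that of its neighbour PHO5, but probes of related acid phosphatases may share signal. At 0 min PHO3 was at 1.24 and 0.20 in the double mutant, 0.31 and 0.48 in Cyc8-4KtoR and −0.20 and −0.50 in Tup1K270R.

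The probes whose log2 ratios followed each gene most closely over the 22 arrays are given as a description, since the arrays share references and stress times. SPL2 was nearest to PAU7 (Pearson r = 0.994), YLR177W (0.991) and HAP2 (0.991). PHO5 was nearest to HOM2 (0.946), SDT1 (0.945) and CWC23 (0.94), and PHO89 to BIR1 (0.949), LDS2 (0.944) and YBL044W (0.937). VTC3 was nearest to PPN2 (0.97), ARO2 (0.968) and JEM1 (0.963). PHO11 was nearest to THI7 (0.973), PHO3 (0.956) and ASP1 (0.931), and PHO12 to PHO3 (0.985), THI7 (0.973) and THI2 (0.926). THI7 is a thiamine transporter and THI2 an activator of thiamine genes. PHO84 had no such close neighbour, its nearest being PHO3 (0.803), THI2 (0.8) and NRE1 (0.789). Among the 7 genes the highest correlation was between PHO11 and PHO12 (0.987), followed by PHO5 and SPL2 (0.876).

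**Figure D5:**
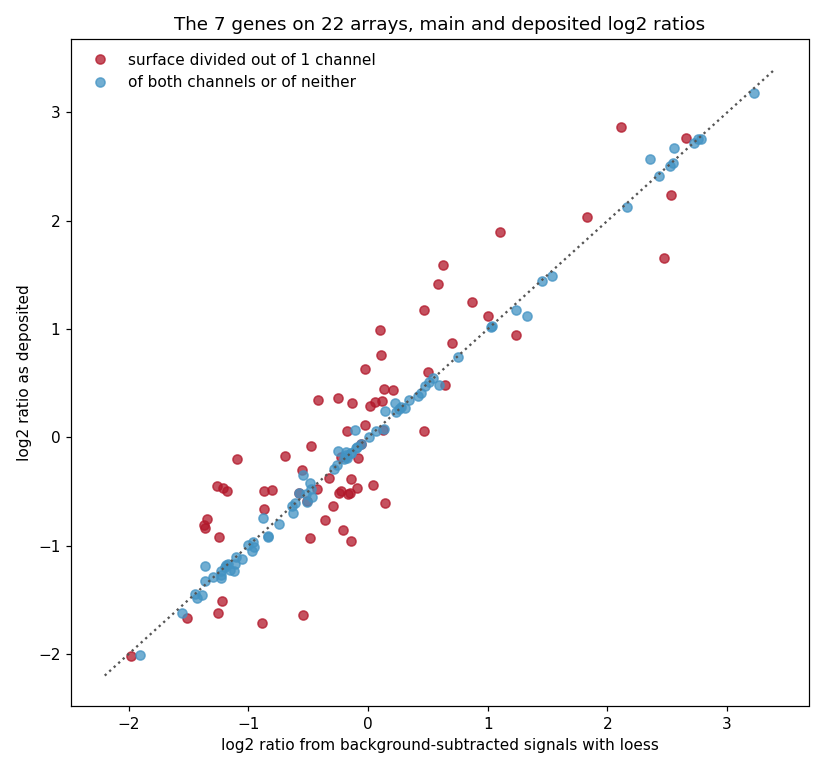
Log2 ratios of the 7 genes on 22 arrays as deposited (vertical axis) against those used here (horizontal axis), with the line of equality dotted. Red points are 10 arrays on which the scanner software divided a spatial surface out of 1 channel and blue points the other 12. Red values differ by a median of 0.362 and blue by 0.025.

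The deposited log ratios differed from those used here on arrays where the scanner software had divided a spatial surface out of the Cy3 channel alone. On those 10 arrays the values of the 7 genes differed by a median of 0.362 log2 units and at most 1.1, and on the other 12 by 0.025 and at most 0.22, as the plot of deposited against recomputed ratios shows. Position on the array accounted for 0.298% to 86% of the variance of deposited ratios and for 0.286% to 8.16% of that of the recomputed ones. In wild type at 30 min, SPL2, PHO89 and PHO12 passed the test in the deposited ratios as well, while PHO5, PHO11 and VTC3 kept their direction without passing (adjusted p = 0.173, 0.0677 and 0.0571).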

How the data were processed

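Cultures of 4 strains were hybridized to Agilent 8x15K arrays with 12512 yeast spots each, 2 per probe. The authors scanned and extracted the arrays with Feature Extraction 10.5.1.1. The deposited files hold background-subtracted spot intensity values in both channels, the processed log10 ratio of red over green, and a series matrix of log2 ratios (direction and centring checked against the scanner values).

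Main values were log2 ratios of background-subtracted signals, sample over 0 min wild type, loess-normalized within each array (span 0.3) with outlier spots left out and the 2 spots averaged. Between 95% and 98.5% of spots per array were well above background, and 0 were saturated. The number of arrays (2 a group) limits the precision. Of 6182 probes with all values, 51 in a region that the methods left out, from YDR211W to YDR261C, were dropped, leaving 6131. limma 3.58.1 in R 4.3.3 fitted 22 arrays in 11 groups without covariates, with Benjamini-Hochberg adjustment. Changes of wild type with time and mutants at 0 min were tested as ratios against their reference, which leaves out the spread of the 0 min wild type itself. Columns of other series left unused numbered 0.

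Replicate letters pair the samples because each letter has one reference culture. Deviations of same-letter arrays from their group means correlated at 0.0872 to 0.679 over 55 pairs of groups, above 0.1 in 54. The fit was tested on simulated data for Tup1K270R at 0 min on 6131 probes. Of 200 changed by 1 log2 unit 188 were recovered with 13 false calls, and of 200 changed by 2 units 199 with 9 false calls. With 200 probes changed at once the adjusted test is easier to pass than with a lone change. This recovery therefore does not tell how often a change in a single phosphate gene would be found.

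Named were the 7 genes in every comparison, up to 20 genes of the wider list past 0.65 in both replicates, the 3 most correlated probes of each gene, and 7 osmostress genes. The 7 genes and all lists were chosen with earlier results of these data known. Symbols come from RefSeq R64, and all 47 listed genes matched by systematic name. Alternatives were other sources of values, background corrections, filters, spatial trend, blocks, label readings, left-out replicates and, chosen after seeing the data, no loess. No sequences are given here. Python 3.11.15 and matplotlib 3.10.9 drew the figures.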

Additional observations from a re-analysis of the deposited data

How the results depend on the processing

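The 15 alternatives (including no loess, chosen after seeing the data) gave 1890 values of single genes. None changed sign where the value was past the cutoff. Of the 1890, 242 moved by more than the spread between replicates and 1648 did not. Not all of the 1648 were free to move. Leaving out replicate A or B shifts a mean by less than that spread. The replicate block, keeping in the left-out region and keeping only probes well above background leave the means of the 7 genes as they were. Each of these alternatives held 126 values, all among the 1648, and they do not test robustness. Of 540 counts of genes, 489 stayed within 1.5 times. The others follow, as genes of 7 that passed adjusted p or the cutoff.

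The deposited ratios and the series matrix gave fewer calls. In wild type 3 genes passed at 30 min in the deposited ratios (6 in the values used here), 2 at 60 min (3 in the series matrix and 3 with normexp, against 5), and 1 between 30 and 60 min in each (against 4), with 2 past the cutoff in each (against 5). From 0 to 30 min 4 and 4 passed in the double mutant, 3 and 3 in Cyc8-4KtoR and 2 and 3 in Tup1K270R, where 3 and 3 were past the cutoff. From 0 to 60 min 0 passed in each mutant in either source (4, 3 and 3 in the values used here). Against wild type, 3 were past the cutoff in the double mutant at 0 min in each source with 0 passing, 2 in the double mutant at 60 min and 2 in Cyc8-4KtoR at 60 min. The cause was not tested.

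For the double mutant at 0 min, 0 were past the cutoff and 0 passed with normexp or with the replicate B dyes turned, 0 passed with the spread of the 0 min wild type included, and 2 passed with replicate as a block. In Tup1K270R from 0 to 60 min 5 passed with the block and 5 with that spread included. With the replicate B 30 and 60 min double-mutant arrays exchanged, 0 passed in wild type between 30 and 60 min and 4 in the double mutant from 0 to 30 min (7 in the values used here), and 2 genes at 30 min and 1 at 60 min were past the cutoff against wild type. Slide as a fixed block put 1 past the cutoff in the double mutant at 30 min. Requiring both replicates past the cutoff left 3 in wild type between 30 and 60 min. The cause of these differences was not tested. The replicate block changed no other count beyond 1.5 times.

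Leaving out a replicate leaves 1 array a group and no test. Counts past the cutoff then ran from 1 to 3 for the double mutant at 0 min, were 1 without replicate A and 1 without replicate B for Cyc8-4KtoR at 30 min, and ran from 0 to 1 for the double mutant at 30 min and for each of the 3 mutants at 60 min. Without replicate B the PHO84 value of the double mutant at 0 min was 1.83, and without replicate A 1.02.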

Other observations

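The reference channel holds the same 0 min wild-type culture on every array of a replicate. The signal of STL1, a glycerol transporter gene strongly raised by sorbitol, was 8.31 to 15.9 units in the reference channel on the 6 arrays whose sample was unstressed and 475 to 2120 units on the 16 arrays whose sample was stressed. For CTT1, a catalase gene, the reference signal was 627 to 1700 units on arrays of stressed samples and 303 to 432 units on arrays of unstressed samples, and for GPD1, a glycerol synthesis gene, 5310 to 7720 and 3920 to 5020 units. Among the phosphate genes that rose, the median reference signal of SPL2 was 45.8 units on arrays of stressed samples and 41 units on those of unstressed samples, and that of PHO89 197 and 170 units. These medians pool 30 and 60 min, while SPL2 was high at 30 min only. By time of the sample, SPL2 reference signals ran from 36.4 to 63.7 units at 0 min, 40.8 to 67.7 at 30 min and 32.2 to 58.1 at 60 min. Those of PHO89 ran from 156 to 194, 160 to 264 and 141 to 233 units.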
